A study of Mus musculus with 8 samples.

Results

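The EGF receptor family and its ligands were followed in cells sorted from mouse mammary tumours and profiled on gene expression arrays. The family was taken as 10 listed genes, which were 3 receptors (Egfr, Erbb2 and Erbb3), 6 ligands of the EGF receptor (Areg, Ereg, Hbegf, Tgfa, Btc and Epgn) and the neuregulin Nrg1. Members were found by name alone, as every gene probe whose accession mapped to a listed symbol, whatever its signal. This gave 16 probes, with at least 1 for each of the 10 genes. Of the 20265 genes that could be tested across the arrays, 6 were members (Egfr, Erbb2, Areg, Ereg, Hbegf and Nrg1). The other 4 members (Erbb3, Tgfa, Btc and Epgn) were not well above background on all 4 arrays of either population and are described without a test.

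All tumours came from mice with 2 transgenes, C3(1)-Tag, which expresses the SV40 large T antigen and gives mammary tumours, and an s-SHIP promoter-GFP reporter, in which the internal promoter of Inpp5d drives GFP. Dissociated tumour cells were sorted into lineage-negative CD49f-positive cells with GFP (GFP-positive cells, n = 4) and the same gate without GFP (GFP-negative cells, n = 4), so that every sample shares both transgenes and the CD49f gate. The titles give each population the same numbers, 566, 567, 573 and 631, which are taken here to mark tumours. The labels do not state that each number was a separate animal, nor the age of the mice or the lineage antibodies, and p-values measure the spread between these samples alone. Each array held 59305 gene spots. A level below is the log2 processed spot intensity minus the 75th percentile of all gene spots on that array, which puts that percentile at 0 and makes a step of 1 a doubling. Levels of different probes are not comparable with each other.

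The GFP-positive array of tumour 573 stood apart before any comparison was made. On it 34.1% of gene spots counted as well above background, against 53.5% to 58.5% on the other 7, and the dimmest such signal was 142 intensity units where the others reached down to 13.4 to 23.5. All arrays were on 1 slide, and all GFP-positive arrays were in column 1 and all GFP-negative arrays in column 2, so that the slide's columns and the populations cannot be told apart. Itga6, which encodes CD49f, was well above background on all 8 arrays. Inpp5d, whose promoter drives the reporter, was higher in GFP-positive cells in all 4 tumours, by 1.98 on the log2 scale (SE 0.59), with the GFP-positive array of 573 not well above background. Even so, Inpp5d did not pass the adjusted threshold between populations in limma's test (unadjusted p = 0.0091). With the tumour as a block in that test its adjusted p was 0.459. As markers of the tissue, 17 of 18 luminal and 13 of 13 basal epithelial genes passed the filter on dim probes. Of the 12 T, NK and B cell markers, Ptprc and 5 others were well above background on no array. Cd3e and Cd4 of the same list were so on all 8 arrays, at mean levels of 0.43 and 1.21 in GFP-positive and 0.62 and 1.41 in GFP-negative cells. Fewer cells of a type and less RNA per cell cannot be told apart in these bulk samples.

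The family works as a set of receptor tyrosine kinases that pair on the cell surface. EGFR binds amphiregulin, epiregulin, HB-EGF, TGF-alpha, betacellulin and epigen, ERBB3 binds neuregulins but has a weak kinase of its own, and ERBB2 has no known ligand and serves as the partner of the others. The ligands are made as membrane-bound precursors and are released by ADAM proteases, and in the mammary gland amphiregulin acting on stromal EGFR is required for ductal outgrowth.

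In these cells 4 ligands and the receptor Erbb2 differed between tumours, by up to 35.5-fold for Ereg, and no family gene passed the test between GFP-positive and GFP-negative cells. Between populations 0 of the 6 members passed an adjusted p under 0.05 by limma, as did 0.0% of all genes. Between tumours 5 of the 6 passed limma's F test, which 28.8% of all genes passed, and Egfr did not. Leaving out 1 array or tumour lowered this to 3 or 4 members, and the Erbb2 and Hbegf calls were narrow. Ereg spanned the widest range, with its highest level in tumour 631, while Areg and Hbegf were highest in tumour 567. Erbb2 was low in tumour 631, and Nrg1 was low in tumour 573 by its brightest probe but not by a second probe.

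**Figure D1:**
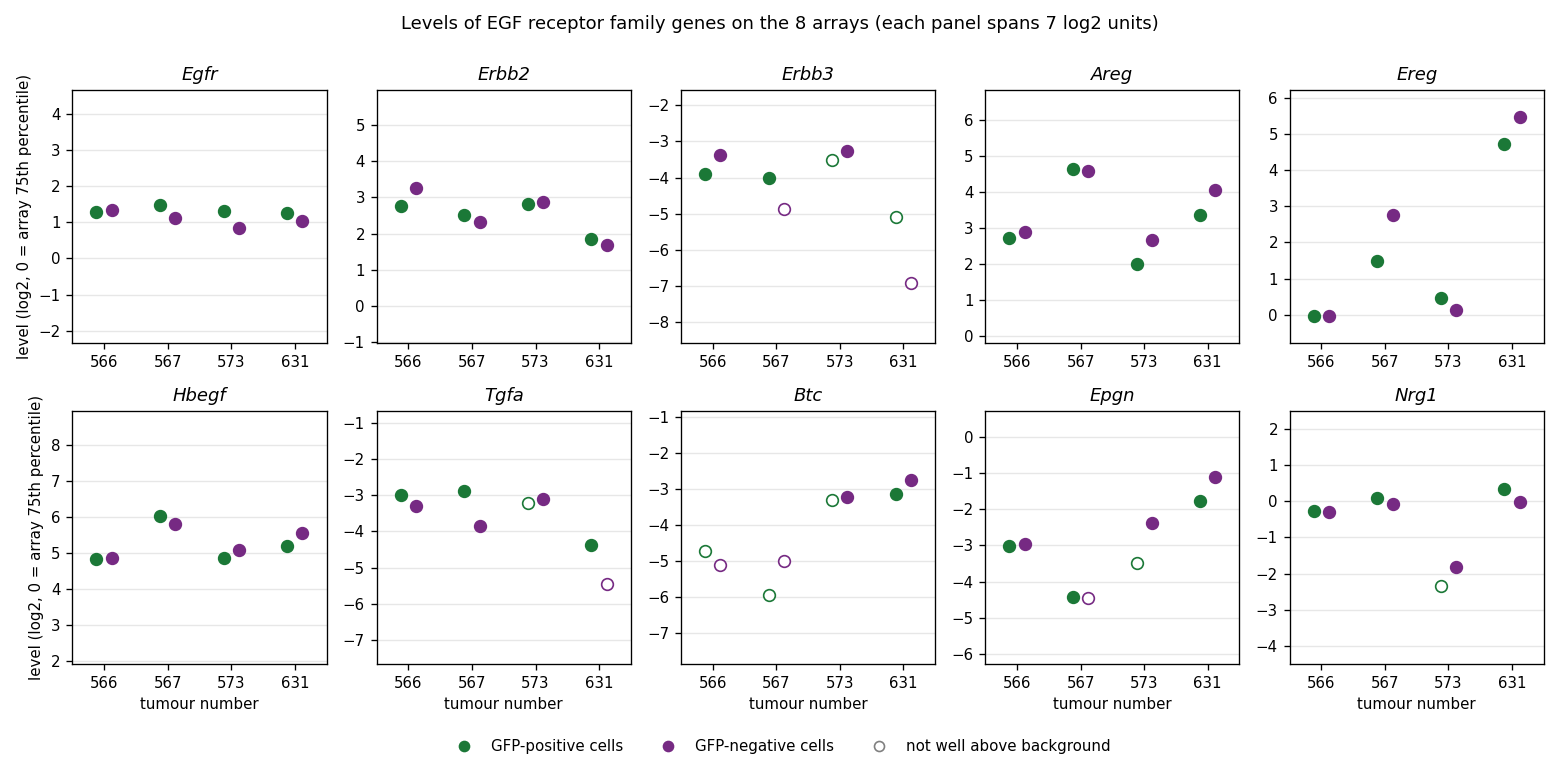
Level of each family gene (log2, 0 is the array's 75th percentile) in GFP-positive (green) and GFP-negative (purple) cells of tumours 566, 567, 573 and 631, 1 point per array and 7 log2 units in every panel. Open points were not well above background. The 2 points of a tumour lie close together in most panels, Egfr (brightest probe) spans 0.24 between tumour means, and Ereg is at 4.73 and 5.48 in tumour 631.

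Egfr, the receptor of 6 of the listed ligands, was measured well above background on all 8 arrays. Its level in GFP-positive cells was 1.28 in tumour 566, 1.47 in 567, 1.32 in 573 and 1.26 in 631. In GFP-negative cells it was 1.35, 1.13, 0.84 and 1.04 in the same order. The GFP-positive value was above the GFP-negative value in 3 tumours and below it in 566, and the groups overlapped through that tumour. The mean difference was 0.24 (SE 0.18, 95% interval -0.17 to 0.66). The 2 other Egfr probes differed by 0.18 and 0.28. By its brightest probe, Egfr was the tested member with the smallest range between tumours. The tumour means were 0.24 apart, at percentile 3.1 of all tested genes, and did not pass limma's F test (adjusted p = 0.680). The 2 other probes had wider ranges, of 0.41 and 0.88, and the second of these was well above background on 7 arrays.

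The Egfr promoter is shown because this member, by its brightest probe, had the narrowest range. It is taken as the 250 bases before the annotated start in the RefSeq table of GRCm38.p6, on the plus strand at chr11:16751953-16752202, with capitals for a GC box read on the other strand.
Egfr: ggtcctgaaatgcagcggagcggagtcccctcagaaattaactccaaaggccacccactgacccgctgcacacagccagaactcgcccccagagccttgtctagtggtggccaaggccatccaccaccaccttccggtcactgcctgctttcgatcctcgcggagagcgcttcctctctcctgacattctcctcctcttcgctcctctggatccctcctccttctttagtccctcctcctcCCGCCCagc
The GC box (GGGCGG, or CCGCCC on the other strand) lay 9 to 4 bases before the start. It was held by 32.7% of the 32851 promoters of the same length in that table.

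Erbb2, the receptor without a ligand of its own, followed the tumour and not the population. Its level in GFP-positive cells was 2.76, 2.51, 2.83 and 1.85 in tumours 566, 567, 573 and 631. The GFP-negative cells had 3.26, 2.33, 2.88 and 1.67. Tumour 631 was lowest in both populations, and the populations overlapped throughout. The population difference was -0.05 (SE 0.38, 95% interval -0.90 to 0.80), and that of the other Erbb2 probe was -0.12. Tumour means ranged over 1.25 on the log2 scale, a 2.38-fold span from tumour 566 to tumour 631, and limma's F test called it (adjusted p = 0.0325). The other Erbb2 probe had its highest and lowest tumour means in the same tumours. This call was narrow. It was lost without any 1 of 7 arrays (adjusted p 0.0504 to 0.123), the exception being the GFP-positive array of 566 (0.0413), and also without tumour 567 (0.0527) or 631 (0.213), under quantile normalization (0.0619) and under median scaling (0.151).

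Erbb3, the neuregulin receptor, was dim. Among GFP-positive arrays 2 of 4 measured it well above background, at -3.91 in tumour 566 and -4.02 in 567. Among GFP-negative arrays 2 of 4 did, at -3.37 in 566 and -3.26 in 573. On both arrays of tumour 631 it was not well above background, nor on the GFP-positive array of 573 or the GFP-negative array of 567. Erbb4, the remaining receptor of the family, was well above background on 0 of 8 arrays.

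On the mean of the 2 populations, markers of several cell types were, like Erbb2 and Erbb3, lowest in tumour 631. Over the 17 luminal genes tested, the mean level was 2.30, 2.11, 2.33 and 0.17 in tumours 566, 567, 573 and 631, with 1.64 in the GFP-positive and -1.29 in the GFP-negative cells of 631. On the same 2 arrays Erbb2 was at 1.85 and 1.67, and Erbb3, not well above background on either, at -5.09 and -6.91. The 13 basal markers had tumour means of 1.92, 1.39, 1.04 and 0.59. In GFP-positive cells alone they were lowest in 573, at 1.17 against 1.41 in 631, while the GFP-negative cells of 631 had -0.23. The 2 Schwann cell markers tested of 5, Sox10 and Mbp, had a mean of 2.74, 2.82, 3.30 and -0.28. In 631 this was 1.38 in the GFP-positive and -1.94 in the GFP-negative cells. Sox10 passed limma's F test between tumours (adjusted p = 0.0347) and Mbp did not (0.0719). Of the luminal genes 3 of 17 passed that test (17.6%) and of the basal genes 3 of 13 (23.1%), against 28.8% of all genes. The part of these cell types in the Erbb2 and Erbb3 values was not tested.

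The genes Epgn, Ereg, Areg and Btc are neighbours and lie in this order on chromosome 5. The promoters of the 3 that have an entry in the RefSeq table (GRCm38.p6) are shown because these neighbours had different orders of the tumours. Each is the 250 bases before the annotated start, 5′ to 3′ on the gene's strand, with motif matches in capitals. They lie at chr5:91027267-91027516 (Epgn, plus strand), chr5:91139349-91139598 (Areg, plus strand) and chr5:91402995-91403244 (Btc, minus strand).
Epgn: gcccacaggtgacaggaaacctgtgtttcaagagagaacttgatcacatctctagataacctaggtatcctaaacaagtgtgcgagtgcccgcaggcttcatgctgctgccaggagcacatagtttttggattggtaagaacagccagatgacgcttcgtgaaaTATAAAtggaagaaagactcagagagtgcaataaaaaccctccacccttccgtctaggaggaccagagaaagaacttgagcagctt
Areg: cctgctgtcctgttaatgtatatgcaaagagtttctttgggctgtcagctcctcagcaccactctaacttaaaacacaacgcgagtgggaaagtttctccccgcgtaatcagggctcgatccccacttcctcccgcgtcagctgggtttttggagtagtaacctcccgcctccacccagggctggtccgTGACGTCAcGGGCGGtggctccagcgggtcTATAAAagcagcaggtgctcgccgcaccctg
Btc: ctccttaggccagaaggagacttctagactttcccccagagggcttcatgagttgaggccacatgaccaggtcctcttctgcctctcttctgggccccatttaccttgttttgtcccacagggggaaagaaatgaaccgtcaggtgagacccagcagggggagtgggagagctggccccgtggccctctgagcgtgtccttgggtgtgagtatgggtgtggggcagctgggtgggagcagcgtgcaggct
The motifs searched, on both strands, were the TATA box (TATAAA), the cAMP response element (TGACGTCA), the GC box (GGGCGG) and the AP-1 site (TGANTCA). The Areg window held the first 3 of them, at 31 to 26, 61 to 54 and 52 to 47 bases before the start, and none of the matches overlapped. Of all 32851 promoters, 12.4% held the TATA box, 1.55% the cAMP response element and 6.75% the AP-1 site. The Epgn window held a TATA box 86 to 81 bases before the start, and the Btc window held none of the 4. A match is a description of these letters and not a measured binding site. Tgfa and Erbb2 also had an entry, with 2 GC boxes and none of the 4 motifs, respectively.

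Ereg, which encodes epiregulin, a ligand of EGFR and ERBB4, had the widest range of the family. In GFP-positive cells its level was -0.04 in tumour 566, 1.49 in 567, 0.47 in 573 and 4.73 in 631. In GFP-negative cells it was -0.05, 2.77, 0.12 and 5.48. The spot intensities behind these levels were 400 in 566 and 13824 in 631 for GFP-positive cells, and 469 in 573 and 19972 in 631 for GFP-negative cells. Tumour 631 was highest and 567 second in both populations, and 566 and 573 lay together at the bottom. The highest tumour mean was 35.5-fold above the lowest, 27.4-fold within GFP-positive and 46.0-fold within GFP-negative cells. This range stood at percentile 99.7 of all genes tested, and limma's F test gave an adjusted p of 0.0063, ranked 114 of 20265. The call held in 21 of 22 alternatives, the exception being the fit without a filter on dim probes (adjusted p = 0.183), in which no gene of the array was called. Without the GFP-positive array of 573 the adjusted p was 0.0053. Between populations Ereg differed by -0.42 (SE 1.41, 95% interval -3.62 to 2.78). Within tumours the difference was 0.00 in 566, -1.29 in 567, 0.35 in 573 and -0.75 in 631, so the sign was not shared.

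Areg, which encodes amphiregulin, was well above background on all 8 arrays. Its level in GFP-positive cells was 2.74, 4.63, 2.0 and 3.36 in tumours 566, 567, 573 and 631. In GFP-negative cells it was 2.90, 4.59, 2.66 and 4.06. The tumours kept the order 567, 631, 566, 573 in both populations. The tumour means spanned 2.28 on the log2 scale, or 4.85-fold, and passed limma's F test (adjusted p = 0.0095, or 0.0159 without the GFP-positive array of 573). The call was lost with a common floor on dim values (0.0555) and without a filter on dim probes (0.187). The population difference was -0.16 in 566, 0.04 in 567, -0.66 in 573 and -0.70 in 631. The mean difference was -0.37 (SE 0.62, 95% interval -1.78 to 1.04), which did not pass the test. It was 0.02 when the GFP-positive array of 573 was dropped from this fit, which has no pairs. The GFP-negative array of 573, the lowest tumour, stayed in, so that value takes in differences between tumours. The pairs of 566, 567 and 631 are untouched by this and keep their differences of -0.16, 0.04 and -0.70.

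Hbegf, which encodes the heparin-binding ligand of EGFR and ERBB4, had a narrower range. Its level in GFP-positive cells was 4.82, 6.04, 4.87 and 5.20 in the 4 tumours in the same order. In GFP-negative cells it was 4.86, 5.80, 5.09 and 5.55. Tumour 567 was highest and 631 second in both populations, while 566 and 573 lay close together below them. The population difference was -0.09 (SE 0.33, 95% interval -0.85 to 0.66). The tumour means spanned 2.11-fold and passed limma's F test (adjusted p = 0.0371). The call was lost without any 1 of 7 arrays (adjusted p 0.0565 to 0.204), the exception being the GFP-positive array of 631 (0.0427). It was also lost without tumour 566 (0.0715), 567 (0.262) or 573 (0.0511). Over the 8 arrays the levels of Areg and Hbegf had a Pearson correlation of 0.94, a description over 8 points that share 4 tumours and 1 slide.

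Epgn, which encodes epigen, was well above background on 3 arrays of each population. In GFP-positive cells its level was -3.02 in tumour 566, -4.42 in 567 and -1.76 in 631, and in GFP-negative cells -2.94 in 566, -2.38 in 573 and -1.10 in 631. Tumour 631 was highest and 567 lowest in both, though on the GFP-negative array of 567 and the GFP-positive array of 573 Epgn was not well above background. With a filter that asked for 3 of 4 arrays of a population, Epgn and Tgfa could be tested. Both passed between tumours (limma F test, adjusted p = 0.0195 for Epgn and 0.0392 for Tgfa), while Hbegf missed the threshold (0.0528). Under that filter Epgn differed by -0.45 between populations (SE 0.77). Btc, which encodes betacellulin, had 2 probes. The brighter was well above background on 3 arrays, at -3.14 and -2.75 in the GFP-positive and GFP-negative cells of tumour 631 and at -3.24 in the GFP-negative cells of 573, and the other on 0 of 8. The neighbours thus had their highest tumour in 631 (Epgn, Ereg and the brighter Btc probe) or 567 (Areg).

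Tgfa, which encodes TGF-alpha, went the other way in tumour 631. It was well above background at -2.99, -2.88 and -4.37 in the GFP-positive cells of tumours 566, 567 and 631. In GFP-negative cells it was at -3.30, -3.84 and -3.11 in 566, 567 and 573. Tumour 631 was lowest in GFP-positive cells, and its GFP-negative array was not well above background. Under the filter of 3 of 4 arrays its population difference was 0.56 (SE 0.55) and did not pass the test.

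The squamous and follicle keratinocyte markers had their highest mean in tumour 631, as did Ereg and Epgn. The mean level over the 7 genes tested of 10 was 2.15 in the GFP-positive and 1.36 in the GFP-negative cells of 631, against 0.76 to 1.25 and -0.09 to 0.62 in the other 3 tumours. The list was not lowest in 567, where Epgn was lowest, and its tumour means were 0.35, 0.93, 0.43 and 1.75 in 566, 567, 573 and 631. Of its genes 3 of 7 passed limma's F test between tumours, or 42.9% against 28.8% of all genes. Krt6a, a keratin of activated keratinocytes, was highest in 631 at 3.03 and did not pass (adjusted p = 0.0645), while Krt10 was highest in 573 at 1.21 and Lor in 567 at -1.88. The part of these cells in the Ereg and Epgn values was not tested.

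Nrg1, which encodes neuregulin, the ligand of ERBB3 and ERBB4, was low in tumour 573. By its brightest probe, GFP-positive cells had -0.27, 0.08 and 0.34 in tumours 566, 567 and 631, and -2.35 in 573, where it was not well above background. GFP-negative cells had -0.30, -0.09, -1.81 and -0.03 in 566, 567, 573 and 631. Tumour 573 stood below the other 3 in both populations, and the populations overlapped. The tumour means spanned 4.71-fold with an adjusted p of 0.0095 in limma's F test, or 0.0236 when the GFP-positive array of 573 was left out. Without tumour 573 as a whole the call was lost (0.332). The population difference was 0.01 (SE 0.64, 95% interval -1.43 to 1.46).

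The Nrg1 result depended on the probe. A second probe of the same RefSeq transcript was well above background on all 8 arrays, at -0.62 in the GFP-positive cells of 573 and at -4.06 in its GFP-negative cells, while the other 6 arrays lay between -2.82 and -2.40. That probe gave a tumour F test with adjusted p = 0.985 and a population difference of 0.99 (SE 0.50), and with the mean of the probes the F test had adjusted p = 0.158. A probe for a predicted transcript was well above background on 2 arrays. The fibroblast markers were also low in tumour 573, with a mean over 9 of 12 genes of -0.41 against 1.57 to 2.46 in the other tumours. The part of the fibroblasts in the Nrg1 values was not tested.

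**Figure D2:**
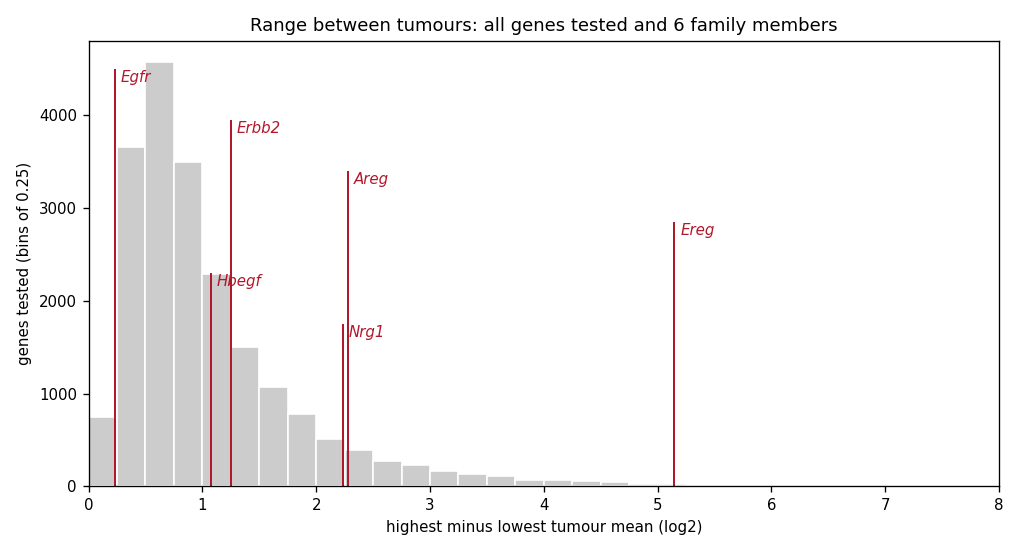
Number of tested genes (vertical axis, bins of 0.25) by the difference between the highest and the lowest tumour mean (horizontal axis, log2), with a red line at each of the 6 members tested. Egfr, by its brightest probe, lies in the lowest bin at 0.24 and Ereg at 5.15, near the right end of the distribution, whose median is 0.82.

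As a background to the tumour calls, 28.8% of the 20265 genes (5834) passed the same F test at an adjusted p under 0.05. The median range between tumour means was 1.74 for the 6 members and 0.82 for all genes, or 3.35-fold and 1.77-fold. The counts depended on the arrays used. Leaving out 1 array or 1 tumour gave 3 or 4 members called and 1649 to 5186 genes, and Areg and Ereg were called in each of these 12 fits. The lowest number of genes, 1649, came without the GFP-positive array of 567. The tumours with the highest and the lowest mean were the same under the 4 other scalings for Erbb2, Areg, Ereg and Nrg1, while the lowest tumour of Hbegf was 573 under median scaling and those of Egfr varied. Median scaling moved the tumour medians of all genes apart, from 3.46 in 573 to 4.11 in 567, where the 75th percentile left them between 0.06 and 0.07.

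Between the populations, the smallest adjusted p of any gene was 0.675 by limma. An unadjusted p under 0.05 was reached by 161 genes, or 0.794%, and by 0 of the 6 members. With the tumour as a block in the fit, 1113 genes or 5.49% had an unadjusted p under 0.05, again with 0 of the 6 members. With that block 0 genes passed the adjustment, and the smallest adjusted p was 0.459, the value of Inpp5d. The reporter's own gene was thus missed by both fits. The members' differences had a median of -0.07, close to the -0.06 of all genes, with 2 higher and 4 lower in GFP-positive cells. None of the 6 had the same sign in all 4 tumours, against 14.2% of all genes. A p that misses the threshold does not show equal levels. The 95% interval was narrowest for Egfr, from -0.17 to 0.66, and widest for Ereg, from -3.62 to 2.78. These come from the fit without a block, in which the spread between tumours counts as error. With the tumour as a block the interval was -0.12 to 0.60 for Egfr and -1.11 to 0.27 for Ereg.

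**Figure D3:**
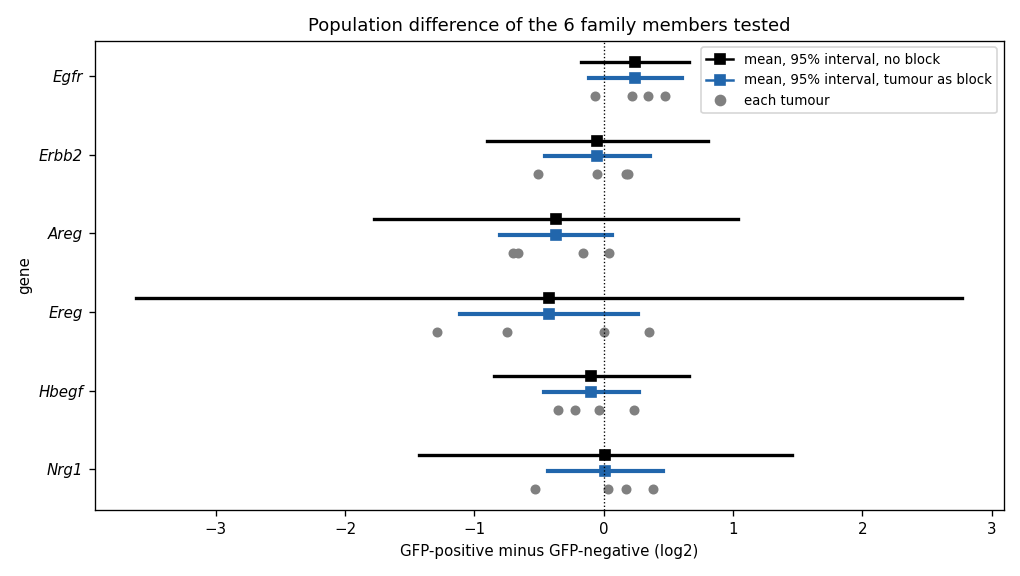
GFP-positive minus GFP-negative level (log2) of the 6 members tested, with the mean and 95% interval without a block (black) and with the tumour as a block (blue), and the difference in each tumour as grey points. All 12 intervals include 0, and the points of every member fall on both sides of 0.

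Markers of other cell types did differ in direction between these populations. All 12 pericyte markers tested were lower in GFP-positive cells on the mean over tumours. Their mean levels were -1.44 to -0.23 against 0.42 to 0.91 in GFP-negative cells. Rgs5 and Higd1b, which mark pericytes, differed by -2.85 (SE 0.47) and -2.83 (SE 0.43). Cspg4 of the same list differed by only -0.18 (SE 0.74) and was higher in the GFP-positive cells of 573 (0.19) and 631 (1.00). The 17 luminal markers tested were all higher in GFP-positive cells on the mean over tumours, by a median of 1.13, which rested on the GFP-negative array of 631. Without that array, an alternative added after the data were seen, the median was 0.05, with 10 higher and 7 lower, and the 12 pericyte markers were still all lower. The 7 endothelial markers tested had a mean of 2.14 in the GFP-positive cells of 566 and between -2.21 and -0.32 on the other 7 arrays. The 8 macrophage markers tested had means from -0.65 to 0.08 and from -0.13 to 0.72. No gene of any marker list passed the adjusted threshold between populations in limma's test. Their part in the members' differences was not tested.

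**Figure D4:**
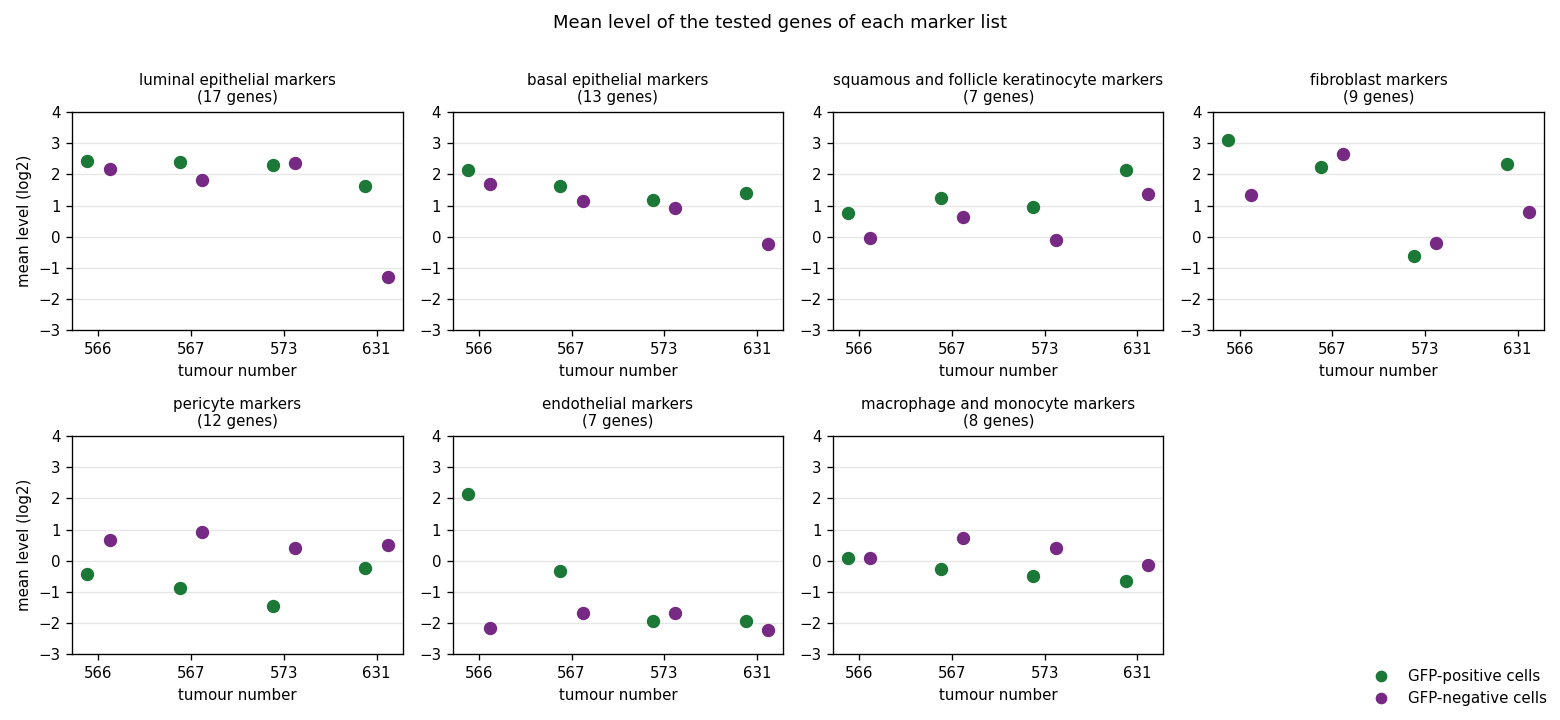
Mean level (log2) of the tested genes of 7 marker lists in GFP-positive (green) and GFP-negative (purple) cells, by tumour. Luminal markers are lowest in the GFP-negative cells of 631 at -1.29, squamous markers are highest in 631, fibroblast markers are lowest in 573, and pericyte markers are higher in every GFP-negative sample.

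The other genes of the pathway were followed in 7 lists of 99 genes, of which 93 could be tested, again with 0 called between populations. Of these 93 genes, 32 were higher and 61 lower in GFP-positive cells with a median of -0.06, the same as for all genes. With the tumour as a block 5 had an unadjusted p under 0.05, all lower in GFP-positive cells, against the 5.49% of all genes. They included Junb, an immediate-early AP-1 subunit, at -0.41 (SE 0.18), with -0.44, -0.42, -0.36 and -0.42 in tumours 566, 567, 573 and 631. Errfi1, which encodes the EGFR inhibitor MIG6, was at -0.53 (SE 0.39), with -0.14, -0.73, -0.52 and -0.71 in the 4 tumours. Dusp4, a MAP kinase phosphatase, was at -0.39 (SE 0.49) and below 0 in all 4 tumours. Stat5a, a transcription factor of the receptor and cytokine pathways, was at -0.49 (SE 0.22). The remaining gene, the AP-1 subunit Fosl1, was at -0.55 (SE 0.86). None of the 5 had an adjusted p under 0.889 with the block. The other genes named by the rule had differences of -0.35 (Phlda1), -0.28 (Stat5b), -0.27 (Adam9), -0.24 (Spry2), -0.18 (Braf), -0.16 (Cfc1), 0.16 (Tdgf1), 0.25 (Rps6ka1), 0.34 (Cbl) and 0.35 (Adam12).

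Between tumours 34 of the 93 pathway genes passed limma's F test, or 36.6% against 28.8% of all genes. Among transcripts that MAPK signalling is known to induce, 12 of 18 passed (66.7%). Fosl1 had tumour means of 0.70, 1.19, -1.40 and 1.91 in 566, 567, 573 and 631 (adjusted p = 0.0070). Plaur, the urokinase receptor, had 3.20, 4.35, 1.67 and 4.89 (adjusted p = 0.0065), and its ligand Plau 0.88, 2.91, 0.03 and 2.43. Ccnd1, which encodes cyclin D1, had 1.55, 2.99, 0.64 and 3.33. Tumour 573 was lowest for these 4 genes, and 567 and 631 were the higher 2. Not every gene of the list had this order, since Etv5 was highest in 573 at 4.79 and lowest in 631 at 2.92. Of the 12 that passed, 7 (58.3%) were lowest in 573 and highest in 567 or 631, against 29.0% of all genes called. Another 3 of the 12 were lowest in 566. The 6 that did not pass were Egr1, Epha4, Ets1, Fos, Junb and Phlda1.

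Among proteins that process ligands and receptors, 5 of 11 passed, or 45.5% against 28.8% of all genes. These were Adam12, Adam19, Adam9, Bace1 and Rhbdf2, all lowest in 573. Adam17, the main sheddase of several of these ligands, is outside the rule for named genes. It had tumour means of 1.68, 1.85, 1.63 and 1.68 and did not pass (adjusted p = 0.793). Adam9, another membrane protease, had 1.70, 2.29, 1.50 and 2.81 (adjusted p = 0.0142). Rhbdf2, the iRhom2 partner of ADAM17, had 1.41, 1.67, 0.68 and 1.19. Of the adaptors and recruited enzymes 4 of 19 passed, or 21.1%, below the 28.8% of all genes. Among them were the adaptor Shc1 at 2.20, 3.72, 2.06 and 3.88 and the kinase Src at -0.78, 0.08, -1.70 and -0.31. Of the RAS-MAPK cascade 3 of 13 genes passed (23.1%). One was Rps6ka1, which encodes a kinase downstream of ERK, with its highest tumour mean in 573, at 5.11, and its lowest in 566, at 3.97. Of the 7 listed receptors and ligands that are not members, Tdgf1 and Cfc1 could be tested and Tdgf1 passed.

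Among inhibitors of the receptors, 5 of 20 passed (Cblb, Errfi1, Ptpn1, Sh3kbp1 and Stam), or 25.0% against 28.8% of all genes. Errfi1 had tumour means of 4.74, 5.33, 4.30 and 5.60 (adjusted p = 0.0240), with the same highest tumour as Ereg and the same lowest as Areg. Of the feedback inhibitors of RAS-MAPK signalling, 4 of 10 passed (40.0%) and they did not share an order. Dusp4 had 1.78, 2.45, 1.11 and 2.91, and Spry4 -4.53, -3.68, -3.53 and -1.25. Spry1 and Dusp6 were lowest in 631 instead, at -0.52 and 4.87. Of the 4 GFP-positive arrays, 3 measured Spry4 well above background.

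Areg and, by its brightest probe, Nrg1 were lowest in 573 and highest in 567 or 631. The second Nrg1 probe, well above background on all 8 arrays, instead had its highest tumour mean in 573, at -2.34. Of the 34 pathway genes called between tumours, 22 were also lowest in 573 and highest in 567 or 631. That is 64.7% against 29.0% of the 5834 genes called in all. This order was chosen after the members' values were seen, and the share is a description. Under the 4 other scalings it was 64.7% to 73.5% for the pathway genes and 27.2% to 38.5% for all genes called. From the GFP-negative arrays alone, which leave out the GFP-positive array of 573 with its raised background, 22 of the 34 pathway genes had it (64.7%), against 27.7% of all genes called; this alternative was added after the data were seen. From the GFP-positive arrays alone the shares were 58.8% and 27.3%. On the mean of the populations the fibroblast markers had this order too. Their tumour means were 2.22, 2.46, -0.41 and 1.57 in 566, 567, 573 and 631, with 4 of 9 genes called. They had it in GFP-negative cells alone, but in GFP-positive cells alone they were highest in 566, at 3.11, and lowest in 573. The part of the fibroblasts in the pathway genes' order was not tested.

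**Figure D5:**
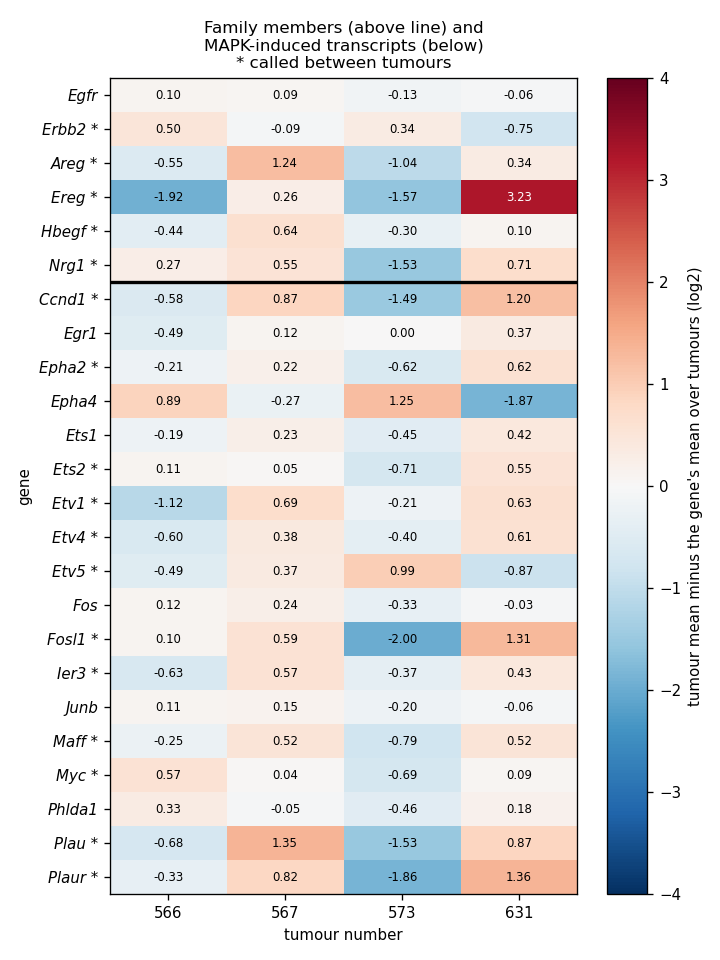
Tumour mean of each gene minus its mean over the 4 tumours (log2, red above and blue below), for the 6 members tested (above the line) and the 18 MAPK-induced transcripts (below it), with an asterisk where limma's F test between tumours had an adjusted p under 0.05. Tumour 573 is blue for Areg, Nrg1, Fosl1, Plau and Plaur, while Erbb2, Epha4 and Etv5 are blue in 631.

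The genes whose levels were most like each member's over the 8 arrays were found among all tested genes with a symbol. For Ereg these were Zdhhc17, D5Ertd605e and Tas1r2 (Pearson r = 1.00, 0.99 and 0.99). For Areg they were Rasgef1b, Ticam1 and Arpc2 (0.99, 0.99 and 0.98). For Hbegf they were Rhbdd2, Mta2 and Arl13b (1.00, 0.98 and 0.98), and for Nrg1 Scx, Osgin1 and Osbpl5 (0.99, 0.99 and 0.98). Erbb2 was nearest to Pkmyt1, Tedc2 and Foxd2 (0.99, 0.98 and 0.98). Egfr had the lowest such values, for Gjb1, Lnpep and Moxd1 (0.92, 0.90 and 0.88). Among the members themselves, Erbb2 and Ereg ran opposite to each other (r = -0.96), and Areg and Nrg1 had r = 0.72. All of these are descriptions over 8 arrays that share 4 tumours.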

How the data were processed

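Total RNA of 8 sorted cell samples was hybridised with Cy3, 1 array per sample. The authors deposited linear spot intensity from Agilent Feature Extraction 10.7.3.1, per the submitters' processing notes, background-subtracted and detrended within the array, and not normalized between arrays, per the file headers. The deposited series-wide table held the same intensity in all 62976 spots of each array, with column medians of 23.6 to 36.6, linear, not centred and not a ratio. There were 0 columns of other samples.

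From these, log2 intensity minus the 75th percentile of each array's gene spots (344 to 580 intensity units) was computed, control and outlier spots were dropped, and the mean was taken over a probe's spots, leaving 56555 of 56605 gene probes. Symbols came from unversioned accessions in a RefSeq table (GRCm38.p6), which named 32969 probes. A probe had to be well above background on all 4 arrays of a population, which 26316 were, and the probe with the highest mean stood for its gene. Of the 20265 genes, 13318 had a symbol.

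Tests were two-sided and used limma 3.58.1 in R 4.3.3 with Benjamini-Hochberg adjustment over all genes tested, at 0.05: GFP-positive minus GFP-negative cells with no covariate, and an F test of the 4 tumours with population as covariate, whose residual is the spread of the population difference over tumours. The fits were tested on simulated data. Same-numbered arrays deviated together (correlations of 0.573, 0.695, 0.642 and 0.741, against at most 0.221 with another number), so the numbers pair the arrays. A fit with the tumour as a block is given where it moved a count and for some intervals. SEs and intervals of the population difference are otherwise from the fit without it.

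The family members, the pathway lists and the marker lists were chosen with earlier results of these data known. Genes named were all members, the 2 pathway genes of each list with the smallest p between populations, those called (up to 10 a list), the first 3 tested genes of a marker list, and the 3 genes most correlated with a member. For the normexp alternative (offset 50), the median spot and background signals stood in for mean signals, which were not used here. Other alternatives were quantile and median scaling, the percentile of probes well above background on all 8 arrays, filters on dim probes, a common floor, the mean of a gene's probes, a trended robust variance model, and leaving out arrays and tumours. Precision is limited by the 4 arrays a group. Promoters came from a RefSeq table of GRCm38.p6, in which 6 of the 10 members matched. A result on 1 listed pathway gene is not reported here.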

Additional observations from a re-analysis of the deposited data

Results flagged for a closer look

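Of 30 sets of 4 values tested for a sample far from the others, 1 stood out. The Nrg1 level of the GFP-negative cells of tumour 573 was -1.81, while the other 3 tumours lay between -0.30 and -0.03 in that population. Chance marks about 1 in 20 such sets. The GFP-positive cells of the same tumour were at -2.35, not well above background. The second probe of that transcript was also lowest in the GFP-negative cells of 573, at -4.06. In the GFP-positive cells of 573 that second probe was at its highest of all 8 arrays, at -0.62.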

How the results depend on the processing

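Between populations the number of genes, members and pathway genes called was 0 in all 25 alternatives, and the replicate block, which pairs the arrays by tumour, called 0, 0 and 0 and changed no call. The median difference of the members, -0.07, ranged from -0.29 to 0.085 when 1 array or tumour was left out. Differences near 0 turned their sign. Leaving out arrays or tumours gave -0.34 to 0.19 for Erbb2, -0.85 to 0.023 for Areg and -1.44 to 0.71 for Ereg. It gave -0.36 to 0.064 for Hbegf and -0.40 to 0.61 for Nrg1. These fits had no pairs, so leaving out 1 array kept its partner, and the ranges take in differences between tumours. The percentile over probes detected on all arrays gave 0.016 for Erbb2, and Nrg1 was at -0.12 under quantile normalization and -0.040 under median scaling. That of Egfr stayed above 0 in all 25, from 0.16 to 0.35.

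Between tumours, 5834 genes, 5 members and 34 pathway genes were called. Quantile normalization gave 2451, 3 and 16, the common floor 1501, 2 and 11, and no filter on dim probes 0, 0 and 0, where more and dimmer genes are tested. Median scaling gave 61 pathway genes and normexp 53. These 2 counts stand without the counts of all genes under the same settings, so they do not show a rise particular to the pathway. Over the 22 alternatives the number of all genes called reached up to 8023. Leaving out 1 array or tumour gave 1649 to 5186 genes, 3 to 4 members and 10 to 31 pathway genes. A tumour left with 1 array is then assumed to vary like the others. For the other changes the cause was not tested. Erbb2 was not called in 13, Hbegf in 14, Nrg1 in 4, Areg in 2 and Ereg in 1 of the 22 alternatives. Dim members are limited by signal over background, above all on the GFP-positive array of tumour 573.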
